A study of Arabidopsis thaliana with 83 samples.

Results

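The late step of the auxin response in Col-0 is the change between seedlings labelled 1 h and seedlings labelled 3 h. It was measured on 6 of the 83 arrays of the series, 3 at each time, chosen by title alone. Col-0 (Columbia) is the reference accession of Arabidopsis thaliana, and both groups were untransformed whole plants of that accession. Per the labels, seed was kept in cold sterile water for 5 days and cultured for 7 days in shaken ATS medium at 22 °C under constant light. A yellow filter stood before the lamps for the last 24 h to protect indole-3-acetic acid (IAA), the natural auxin. The sources used here do not state the dose. The same accession was also sampled at 0 h and 30 min, and 6 further accessions (Bay-0, Bl-1, Bur-0, C24, Fei-0 and Sha) were sampled at the same 4 times. No mock-treated arrays at 1 h or 3 h were analysed here, so auxin, time in culture and the serial order of the titles, which runs from 1 h to 3 h, cannot be told apart. No label ties the 3 arrays of a group to separate flasks, so each p-value measures only the spread between arrays, which may be technical.

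Auxin acts by joining the TIR1/AFB receptors to Aux/IAA proteins, which are then degraded and release the ARF transcription factors. The ARF factors switch on a first wave of genes that includes Aux/IAA, GH3 and SAUR families. Several products of that wave act against the signal: new Aux/IAA proteins repress it and GH3 enzymes conjugate the hormone. In seedlings, later responses include wall loosening in growing cells and the founding of lateral roots.

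Signals are the deposited linear intensities of Affymetrix ATH1 arrays, scaled by the submitters to a common trimmed mean. Changes are differences of log2(signal + 16), written as 3 h minus 1 h with the standard error of a limma model, and they understate the fold change of low signals. A probe set is called when its Benjamini-Hochberg adjusted p is under 0.05 and its change is at least 2-fold on that scale. A value after ± is the SD over 3 arrays for a mean signal and the SE for a step. Arrays of a group correlated at r = 0.985 to 0.990 across probe sets, and 1 h arrays correlated with 3 h arrays at r = 0.973 to 0.978. The 3'/5' signal ratio of GAPDH control probes, which rises as RNA degrades, was 1.93 ± 0.12 at 1 h and 2.01 ± 0.33 at 3 h. The actin ratio ran from 61.7 to 91.4 at 1 h and from 25.2 to 82.6 at 3 h, and the lowest value belonged to replicate 3 at 3 h. Without that array 145 probe sets were called, 128 of them shared with the 139 called from all arrays. Of 20 tissue markers, 4 had a probe set listed with 1 gene. The shoot genes LHCB4.2 and RCA had mean signals of 1919 to 3150, and the root hair expansins EXPA7 and EXPA18 had mean signals of 46.5 to 51.9. Markers of seed, flower and pollen had no listed probe set.

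Between 1 h and 3 h, 56 of 15922 tested probe sets were called higher (0.352%) and 83 were called lower (0.521%), 139 in all (0.873%). The median change over all tested probe sets was 0.01 on the log2 scale. At any size, 529 were higher (3.32%) and 622 were lower (3.91%) past the adjusted p. The called rises had a median of 1.22 and reached 2.14, and the called falls had a median of -1.20 and reached -2.89. More falls than rises were steep: 16 falls and 6 rises exceeded 3-fold. In all 56 rises and all 83 falls the 3 arrays at one time lay apart from the 3 at the other, which the call on these same arrays nearly fixes and which supports nothing. Over all tested probe sets this held for 13.7% upward and 13.2% downward. Of the called probe sets, 26 rises and 34 falls were listed with 1 gene and can be named, by locus where the annotation gave no symbol. With a pseudocount of 64 in place of 16, all 60 of these still passed the adjusted p, but 16 stayed past 2-fold, among them CCL, AT1G62770, AT1G67750, AT3G01190 and HAT2. In whole-seedling RNA, a change in the number of cells that express a gene and a change within those cells cannot be told apart.

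**Figure D1:**
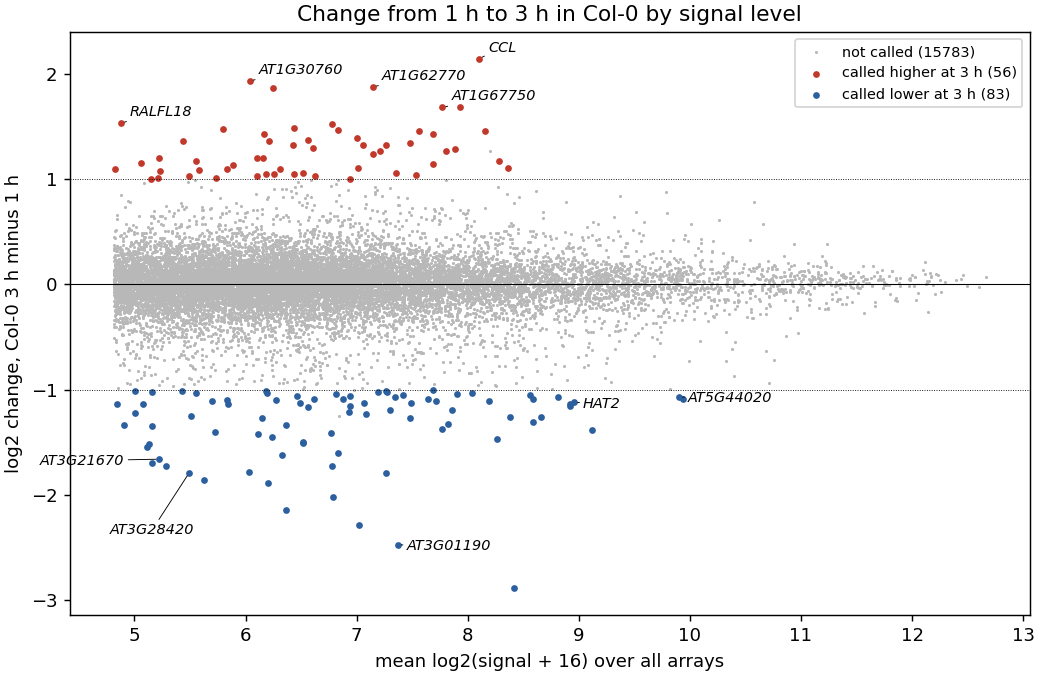
Log2 change from 1 h to 3 h in Col-0 (vertical axis) against the mean log2(signal + 16) over all 83 arrays (horizontal axis), 1 point per tested probe set, with dotted lines at a 2-fold change. The 56 called rises and 83 called falls lie at low and middle signal levels, and CCL and AT3G01190 mark the largest changes among named genes.

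Several regulators of the first auxin wave were lower at 3 h than at 1 h. HAT2 (AT5G47370), a class II homeodomain-leucine zipper factor known as an early auxin target, gave signals of 786, 727 and 771 at 1 h and of 312, 324 and 393 at 3 h. It stood at 117 ± 8.58 at 0 h and 1094 ± 61.5 at 30 min, so the 3 h arrays lay between those levels. The step was -1.12 ± 0.13 (limma adjusted p = 1.31e-09). AT2G18010, which the annotation lists as SAUR10, belongs to a family of small auxin-induced growth proteins. Its arrays read 105, 89.4 and 124 at 1 h and 26.8, 22.1 and 38.0 at 3 h, a step of -1.45 ± 0.17 (limma adjusted p = 1.91e-09). At 0 h and 30 min its means were 12.7 ± 5.80 and 135 ± 28.6. The fall had thus returned the transcript most of the way to its 0 h level, with each 3 h array still above every 0 h array. AT1G43040, the other measured SAUR gene, had signals of 13.5 ± 2.63 at 1 h and 12.9 ± 0.79 at 3 h, and neither its step of -0.03 ± 0.15 (limma adjusted p = 0.967) nor its change at 30 min passed.

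The Aux/IAA repressors that passed the test moved the same way. IAA29 (AT4G32280) read 114, 77.5 and 112 at 1 h and 37.1, 43.7 and 44.0 at 3 h, after 9.93 ± 1.98 at 0 h. Its step of -1.01 ± 0.19 (limma adjusted p = 4.99e-05) lay close to the 2-fold line, and it was -0.93 without 1 h replicate 1, -0.94 without 1 h replicate 3 and -0.95 without 3 h replicate 1. IAA30 (AT3G62100) was lower by less than 2-fold, at 75.5 ± 6.6 and then 33.2 ± 3.52, a step of -0.90 ± 0.13 (limma adjusted p = 2.26e-07). IAA18, the other measured member, gave 0.21 ± 0.12 and did not pass (limma adjusted p = 0.421).

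The GH3 enzymes, which conjugate auxin to amino acids, had no member past the adjusted p among 4 measured. Over all tested probe sets 3.32% rose and 3.91% fell, so none among 4 says little about the family. GH3.3 (AT2G23170) read 3299, 3248 and 3464 at 1 h and 2974, 3030 and 3041 at 3 h, a step of -0.15 ± 0.14 (limma adjusted p = 0.687). Its 0 h mean was 121 ± 16.9, so its signal was still far above that level at 3 h. WES1, also known as GH3.5, had means of 1227 ± 50.9 and 1299 ± 186, and GH3.1 had means of 107 ± 13.6 and 136 ± 10.9. GH3.17, which was not called at 30 min (mean 197 ± 11.0 at 0 h and 179 ± 12.2 at 30 min), gave the highest step of the list, 0.43 ± 0.16 (limma adjusted p = 0.098). These values stand beside the falls of HAT2, SAUR10 and IAA29, but the difference between the families was not tested.

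Lateral root regulators showed no called step among 4 measured, where 0.873% of all tested probe sets were called. LBD29 and LBD16, factors that act downstream of ARF7 and ARF19 in root founder cells, had steps of -0.23 ± 0.18 and -0.48 ± 0.19 (limma adjusted p = 0.594 and 0.121). LBD29 rose from 7.35 ± 2.02 at 0 h to 223 ± 25.5 at 30 min and read 327 ± 38.2 at 1 h and 276 ± 22.4 at 3 h. PUCHI, an AP2-type factor of early root primordia, read 30.4, 32.3 and 31.1 at 1 h and 44.3, 51.8 and 36.5 at 3 h. Those arrays did not overlap, yet the step of 0.34 ± 0.15 did not pass (limma adjusted p = 0.218).

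Further early-induced genes also fell. AT5G12050, an organ growth regulator gene, read 804, 793 and 833 at 1 h and 373, 299 and 319 at 3 h, a step of -1.26 ± 0.17 (limma adjusted p = 4.52e-08). Its 0 h mean of 263 ± 28.0 was close to the 3 h mean of 331 ± 37.9. AT1G14550, a peroxidase gene, read 50.8, 38.0 and 44.8 at 1 h and 1.69, 8.00 and 5.88 at 3 h, and its step was -1.52 ± 0.19 (limma adjusted p = 4.82e-09). It had read 4.91 ± 1.72 at 0 h and 46.9 ± 2.85 at 30 min, so the 3 h arrays spanned the range of the 0 h arrays. AT3G28420 followed the same course, from 3.78 ± 1.94 at 0 h through 78.9 ± 6.66 and 73.8 ± 6.99 to 10.2 ± 4.40, with a step of -1.79 ± 0.18. AT5G52670 went from 51.5 ± 5.99 at 30 min and 50.8 ± 4.5 at 1 h to 9.50 ± 4.47 at 3 h, with a step of -1.40 ± 0.24. AT5G39580 read 75.5 ± 2.4 at 0 h, 294 ± 35.6 at 1 h and 116 ± 11.5 at 3 h, and its step was -1.23 ± 0.17.

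**Figure D2:**
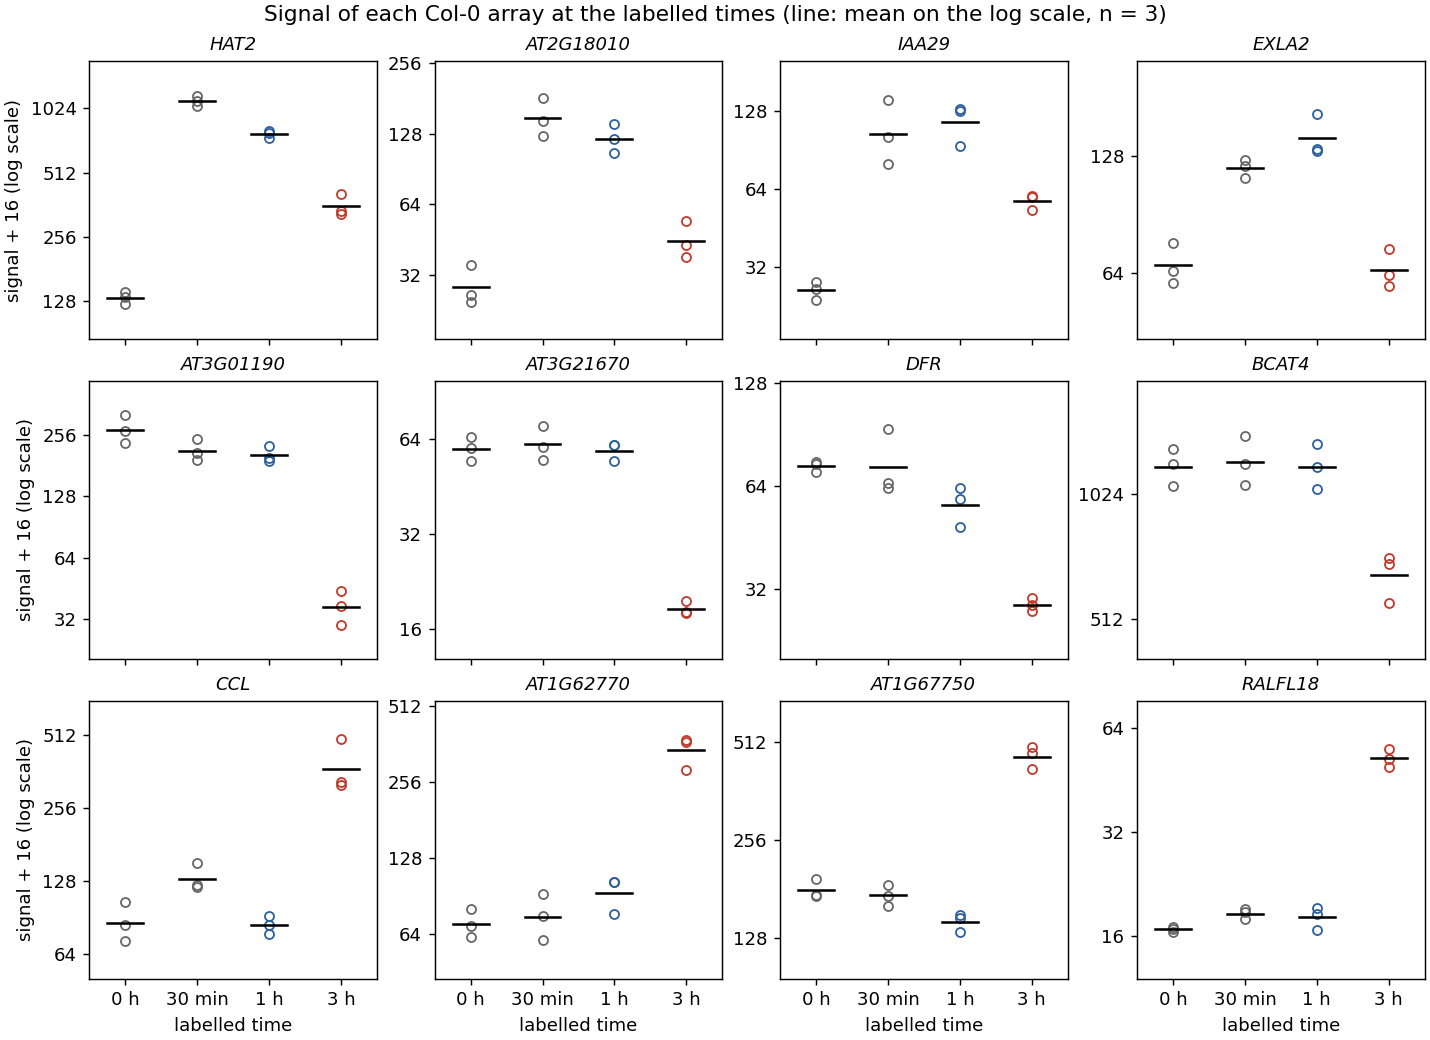
Signal + 16 (vertical axes, log scale) of each Col-0 array at the 4 labelled times for 12 genes, with open circles for arrays and a line at the mean of log values (n = 3). The upper row shows early-induced transcripts lower at 3 h than at 1 h, the middle row transcripts that fell at 3 h after 3 earlier times at higher levels, and the lower row transcripts that rose at 3 h.

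Cell wall genes moved in both directions. Among 15 measured expansins, proteins that loosen the wall, 3 fell past the adjusted p and none rose, beside 3.91% lower and 3.32% higher over all tested probe sets. EXLA2 (AT4G38400), an expansin-like A gene, read 148, 116 and 117 at 1 h and 43.3, 47.4 and 57.7 at 3 h, close to its 0 h mean of 51.3 ± 8.42. Its step was -1.13 ± 0.16 (limma adjusted p = 4.23e-07), the only one of the list past 2-fold. EXPA15 fell from 201 ± 16.2 to 95.2 ± 24.4, a step of -0.99 ± 0.17 (limma adjusted p = 2.51e-05). EXPA8 fell from 116 ± 18.3 to 58.6 ± 13.8 (limma adjusted p = 0.00265), and the remaining members ran from -0.44 to 0.45. The median of the list was -0.02.

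Of 8 measured xyloglucan endotransglucosylase/hydrolases, which cut and rejoin the xyloglucan that tethers cellulose, 2 fell and none rose (3.91% and 3.32% of all tested). XTH33 (AT1G10550) read 145, 121 and 137 at 1 h and 56.3, 45.3 and 65.5 at 3 h, a step of -1.07 ± 0.15 (limma adjusted p = 1.37e-07). Without 3 h replicate 2 that step was -0.96, short of 2-fold. XTH16 fell from 297 ± 30.5 to 187 ± 35.0 (limma adjusted p = 0.00586). XTH18 and XTH19, by contrast, had steps of 0.04 and -0.11 that did not pass.

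Described here are 3 of the 15 largest named rises, genes of enzyme families that act on or in the wall. They were named for the size of their change and not as a list. Other rises given without a role could belong to such families. AT1G62770, of the pectin methylesterase inhibitor family, read 86.4, 60.5 and 86.7 at 1 h and 360, 270 and 354 at 3 h. It had stood at 54.4 ± 9.19 at 0 h, and the step was 1.88 ± 0.17 (limma adjusted p = 1.09e-13). AT1G67750, a pectate lyase gene whose product cleaves de-esterified pectin, read 134, 118 and 132 and then 456, 405 and 476, a step of 1.68 ± 0.11 (limma adjusted p = 1.70e-19). AT1G30760, of the berberine bridge enzyme-like oxidases, read 34.0, 39.3 and 46.5 and then 223, 168 and 203, a step of 1.93 ± 0.20 (limma adjusted p = 9.28e-12). In each of these genes every 3 h array exceeded every earlier Col-0 array. The list of pectin methylesterases and their inhibitors, which the annotation matched by name, held 3 other measured genes with steps of 0.06 to 0.48. None passed the adjusted p (3.32% of all tested rose and 3.91% fell). That match left out AT1G62770 itself, and other called loci without a symbol could belong to the family. The list thus cannot show how the rest of the family moved.

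The steepest named fall belonged to AT3G01190, a peroxidase gene. Class III peroxidases are secreted enzymes that cross-link or loosen walls through reactive oxygen. Its arrays read 209, 181 and 174 at 1 h and 27.9, 21.3 and 13.9 at 3 h, a step of -2.47 ± 0.21 (limma adjusted p = 5.98e-15). The transcript had been at 258 ± 44.5 at 0 h and 198 ± 26.1 at 30 min, so unlike AT1G14550 it fell from a level present before treatment. The 5 peroxidases matched by name included 1 that rose, AT5G64120 (listed as PRX71), from 487 ± 67.6 to 763 ± 37.8. Its step was 0.64 ± 0.18 (limma adjusted p = 0.011), where 3.32% of all tested probe sets rose. That match left out AT3G01190 and AT1G14550, and other called loci without a symbol, rising or falling, could belong to the family. These genes thus do not give the direction of the family.

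Few transport genes could be counted as a list, and the first described here was named for the size of its fall. AT3G21670, listed as NPF6.4 of the nitrate and peptide transporter family, read 45.2, 38.3 and 45.1 at 1 h and 2.15, 1.93 and 3.70 at 3 h. It had been at 43.7 ± 5.36 and 45.8 ± 7.78 at the earlier times, and the step was -1.66 ± 0.19 (limma adjusted p = 3.91e-10). SWEET17 (AT4G15920), a fructose carrier of the vacuole membrane, read 192, 166 and 191 and then 85.7, 75.3 and 85.2. Its step of -1.02 ± 0.18 (limma adjusted p = 2.43e-05) was -0.99 without 1 h replicate 1 or without 1 h replicate 3, and -0.97 without 3 h replicate 2. SWEET2, a related sugar carrier, fell from 52.4 ± 9.27 to 20.9 ± 3.65 (step -0.88 ± 0.16, limma adjusted p = 2.70e-05), and 5 other measured sugar transporters had steps of -0.35 to 0.09. Thus 2 of 7 sugar transporters fell and none rose past the adjusted p (3.91% and 3.32% of all tested).

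In secondary metabolism, DFR (AT5G42800), which makes the precursors of anthocyanins, read 42.6, 32.4 and 47.4 at 1 h and 11.6, 12.8 and 14.0 at 3 h. A step of -0.97 ± 0.19 (limma adjusted p = 0.000153) left it just under 2-fold. CHI, an enzyme earlier in the flavonoid pathway, gave 0.29 ± 0.26 and did not pass. UF3GT, a glycosyltransferase that decorates anthocyanins, fell from 31.2 ± 15.6 to 11.1 ± 2.29. BCAT4 (AT3G19710), the aminotransferase that begins chain elongation of methionine-derived glucosinolates, read 1342, 1173 and 1041 and then 679, 700 and 541, a step of -0.87 ± 0.12 (limma adjusted p = 6.48e-08). AOP3 and AOP1, which modify glucosinolate side chains, had steps of -0.40 and -0.32 that did not pass.

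Detoxification families showed scattered changes. Of 12 measured glutathione S-transferases, which conjugate glutathione to toxic compounds, GSTU26 and GSTU18 fell and none rose, where 3.91% of all tested probe sets fell and 3.32% rose. GSTU26 (AT1G17190) read 147, 150 and 148 at 1 h and 72.3, 55.6 and 62.8 at 3 h, a step of -1.05 ± 0.21 (limma adjusted p = 0.000247) that became -0.98 without 3 h replicate 2. Of 34 UDP-glycosyltransferases, 5 fell and 2 rose past the adjusted p (3.91% and 3.32% of all tested) and none was called (0.873% of all tested), with a list median of 0.01. The falls included UGT74B1 of glucosinolate synthesis (-0.52 ± 0.16) and UGT76C2, which glucosylates cytokinins (-0.67 ± 0.15), and the larger rise was that of UGT87A2 (0.68 ± 0.16). Of 13 cytochrome P450 genes, CYP71B29 and CYP71B35 fell and CYP71B23 rose, each by less than 2-fold.

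CML42 (AT4G20780), a calmodulin-like calcium sensor, read 113, 101 and 145 at 1 h and 47.1, 45.8 and 49.6 at 3 h. Its step of -1.09 ± 0.12 (limma adjusted p = 9.31e-11) was -0.95 without 1 h replicate 3, and the other 6 measured calmodulin-like genes had steps of -0.10 to 0.44. PUB26, a U-box ubiquitin ligase, fell from 61.3 ± 5.70 to 25.3 ± 12.7 (step -0.94 ± 0.14, limma adjusted p = 7.93e-07). It was the only one of 7 measured U-box ligases past the adjusted p, where 3.91% of all tested probe sets fell. The others had steps of -0.26 to 0.12, and the list median was -0.02. RR16, a type-A response regulator induced by cytokinin, fell from 62.9 ± 4.00 to 41.0 ± 5.10. Among the other large falls were AT3G01260 (step -1.72 ± 0.20), AT1G29660 (-1.47 ± 0.16), AT4G11190 (-1.33 ± 0.15), AT4G30170 (-1.30 ± 0.19), AT4G11210 (-1.25 ± 0.16), AT1G73600 (-1.16 ± 0.14) and AT4G02850 (-1.13 ± 0.20). The annotation used here gave no symbol for those 7 genes. Their 1 h means ran from 61.8 to 572 and their 3 h means from 19.4 to 249.

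The largest rise of a named gene was that of CCL (AT3G26740), listed as CCR-like. Its arrays read 68.2, 61.8 and 75.7 at 1 h and 312, 303 and 480 at 3 h, a step of 2.14 ± 0.20 (limma adjusted p = 1.59e-13). Its mean had been 71.2 ± 16.2 at 0 h and 116 ± 17.0 at 30 min, so the 1 h arrays lay within the range of the 0 h arrays. RALFL18 (AT2G33130), of the RALF family of secreted peptides that signal through receptor kinases, read 2.48, 0.62 and 3.22 at 1 h and 33.5, 36.0 and 39.5 at 3 h. All earlier Col-0 arrays read 3.22 or less, and the step was 1.53 ± 0.16 (limma adjusted p = 5.51e-11). It was the only called member of 7 measured RALF genes (0.352% of all tested called higher). RALFL22 fell by less than 2-fold (-0.34 ± 0.11, limma adjusted p = 0.0355), and the other 5 had steps of -0.20 to 0.16.

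Other rising genes had no symbol in the annotation used here. AT5G57785 read 22.1, 14.6 and 25.8 at 1 h and 112, 97.9 and 146 at 3 h, a step of 1.86 ± 0.16 (limma adjusted p = 4.19e-14). AT4G14270 read 87.4, 68.2 and 95.9 and then 268, 235 and 266, a step of 1.45 ± 0.13 (limma adjusted p = 7.49e-14). Both had drifted down before they rose: AT5G57785 had been at 42.9 ± 9.30 and AT4G14270 at 139 ± 20.0 at 0 h. The rises of AT5G24210, AT4G16146, AT2G18980, AT1G53035, AT2G19970, AT1G69080 and AT1G13470 had steps between 1.2 and 1.39. AT2G15960 had a step of 1.18 ± 0.32 (limma adjusted p = 0.0108), and its 3 h mean of 331 ± 78.0 lay below its 0 h mean of 364 ± 42.6. That gene lost its call without 1 h replicate 1 (1.05, limma adjusted p = 0.0707) and without 3 h replicate 3 (1.04, limma adjusted p = 0.0836). It was the only one of the 56 called rises whose 3 h mean did not exceed its 0 h mean.

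Of 11 measured genes on the stress lists 3 rose and none fell past the adjusted p, beside 3.32% and 3.91% of all tested probe sets. Of 3 measured genes on the defence and salicylate list, PR-1-LIKE rose from 82.8 ± 27.7 to 156 ± 26.6 and PDF1.2, a plant defensin, from 26.2 ± 11.3 to 50.8 ± 4.43. Their steps were 0.82 ± 0.20 and 0.69 ± 0.20 (limma adjusted p = 0.00417 and 0.0171), and SAG101 gave 0.22 ± 0.24. LTI30, a dehydrin of cold and drought on another list, rose from 172 ± 57.1 to 274 ± 25.8 (0.66 ± 0.18, limma adjusted p = 0.0106). COR47, the other measured gene of that list and also a dehydrin, did not pass (0.14 ± 0.11, limma adjusted p = 0.580). None of 7 photosynthesis genes, 5 touch and rapid stress genes, 6 histones or 7 tubulins passed in either direction, and their list medians were -0.20, 0.07, 0.06 and -0.04. With 3.32% higher and 3.91% lower over all tested probe sets, none in lists of 5 to 7 genes says little. AKINBETA1, a subunit of the SnRK1 energy-sensing kinase, rose from 91.0 ± 1.5 to 118 ± 7.83 (0.32 ± 0.10, limma adjusted p = 0.029).

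**Figure D3:**
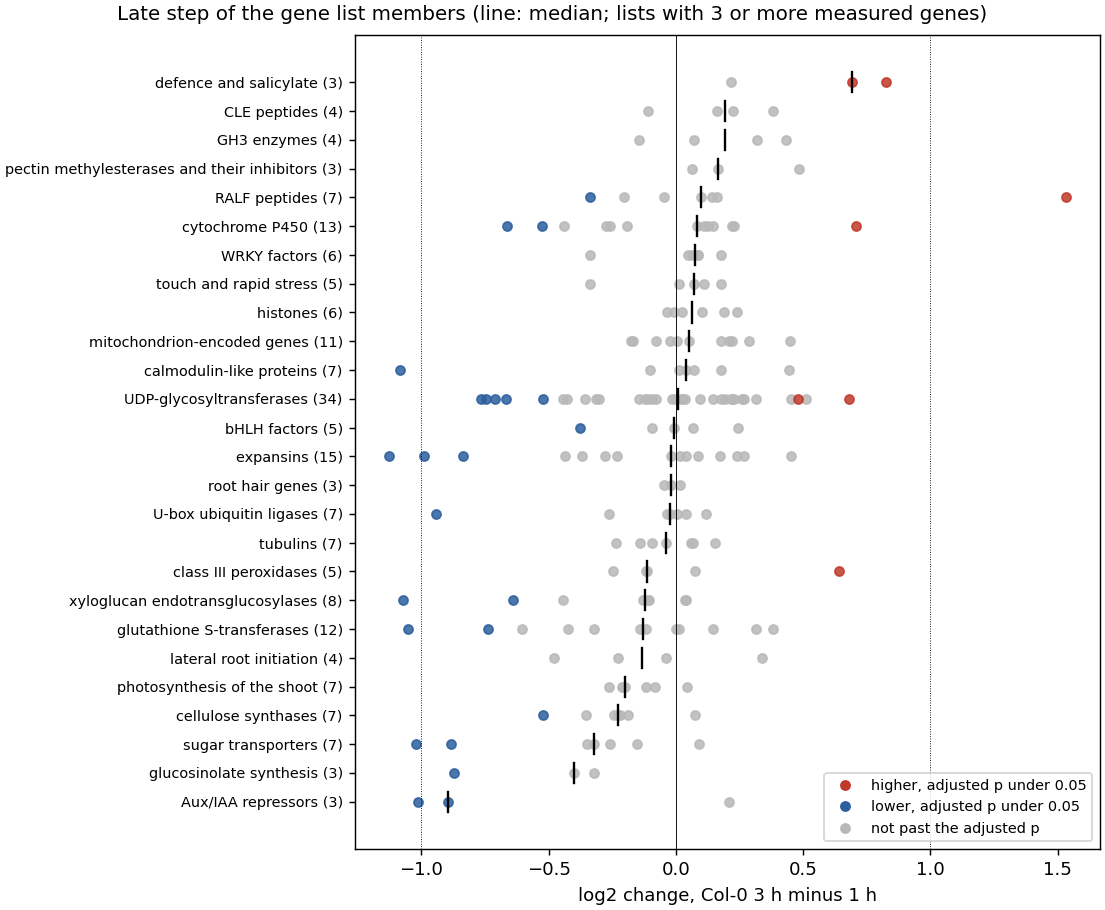
Log2 change from 1 h to 3 h of every measured member (points) of the gene lists with at least 3 measured genes, in lists ordered by their median (black line), with the number of members in brackets. Members past an adjusted p of 0.05 are coloured, and the largest rise and fall are those of RALFL18 and EXLA2.

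In all, 57 lists were drawn up and 45 of them held a measured gene. Together they held 215 genes, of which 9 were called (0.873% of all tested), 8 lower (0.521%) and 1 higher (0.352%). The other 51 named calls were in no list, many of them loci with no symbol in the annotation.

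The falls split by what happened before. Of the 83 called falls, 30 (36.1%) had been called higher at 30 min against 0 h, a comparison that shares no array with the late step and in which 1.34% of all tested probe sets were called higher. Those 30 were 14.1% of the 213 probe sets called higher at 30 min. None of the 83 had been called lower at 30 min, but with 0.176% of all tested probe sets called lower then, that says little. The 30 had median signals of 26.8 at 0 h, 137 at 30 min, 106 at 1 h and 35.2 at 3 h. In 19 of them the 3 h mean was still above the 0 h mean. Named genes among them were HAT2, AT2G18010, IAA29, AT5G12050, AT3G28420, AT1G14550, AT5G52670 and AT5G39580.

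The other 53 falls had median signals of 148 at 0 h, 157 at 30 min, 148 at 1 h and 58.6 at 3 h. That split rests on the 2-fold threshold: 12 of the 53 had been higher and 3 lower at 30 min past the adjusted p by less than 2-fold (5.04% and 2.63% of all tested at any size). EXLA2 (0.83, limma adjusted p = 0.000136) and CML42 (0.68, limma adjusted p = 1.04e-05) were among the 12. In 52 of the 53 the 3 h mean was below all 3 earlier means, a course that the choice of these probe sets favours. AT3G01190, AT3G21670, BCAT4 and DFR show that course on the plot of signals by time, although the last 2 were not called. Of the 56 called rises, none had been called at 30 min in either direction. Over all tested probe sets 1.34% were called higher and 0.176% lower then, so none among 56 says little. Past the adjusted p by less than 2-fold, 4 of the rises had been higher and 3 lower, beside 5.04% and 2.63% of all tested at any size. In 55 of the 56 rises the 3 h mean was above all 3 earlier means, which the call also favours. The share of all tested probe sets with either course was not counted, so neither count supports anything. Median signals of the rises were 57.5, 57.7 and 54.3 at the earlier times and 160.0 at 3 h.

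**Figure D4:**
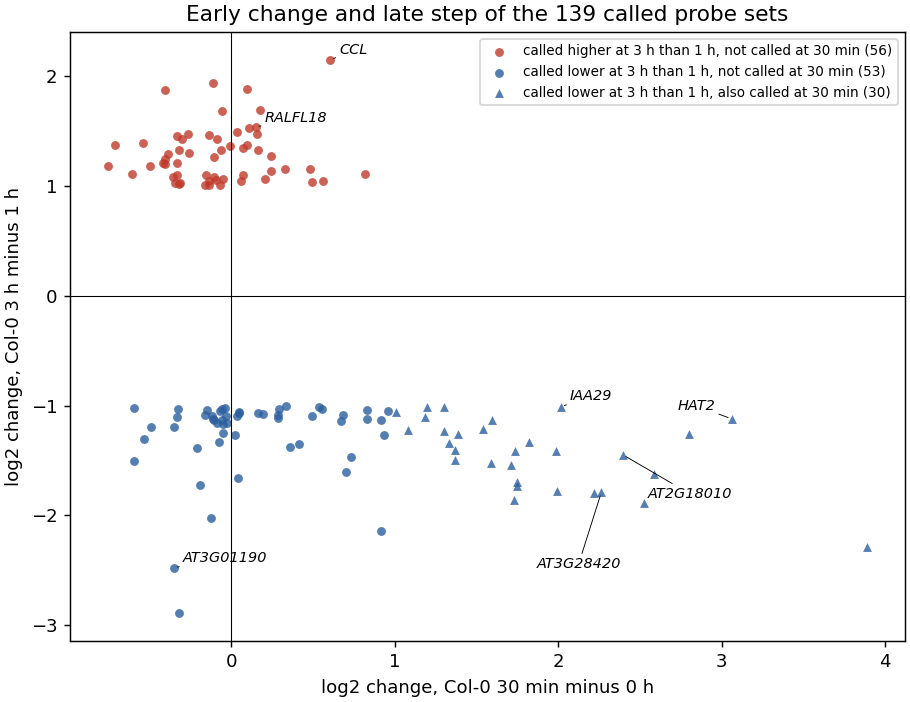
Log2 change from 1 h to 3 h (vertical axis) against log2 change from 0 h to 30 min (horizontal axis) in Col-0 for the 139 called probe sets, with triangles for those also called at 30 min. The 30 triangles all lie at lower right, and the rises lie between -0.75 and 0.82 on the horizontal axis.

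The late step was also present in other accessions, whose arrays are separate from those of Col-0. Fei-0 had 5 arrays at 1 h and 3 h together, where each of the others had 6. Of the 56 called rises, 33 were called higher in Bay-0, where 0.816% of all tested probe sets were, 25 in Bl-1 (0.201%), 25 in Bur-0 (0.27%), 29 in C24 (0.647%), 24 in Fei-0 (0.295%) and 22 in Sha (0.364%). Of the 83 called falls, 48 were called lower in Bay-0 (1.09% of all tested), 45 in Bl-1 (0.396%), 50 in Bur-0 (0.76%), 48 in C24 (0.773%), 39 in Fei-0 (0.628%) and 32 in Sha (0.446%). No Col-0 call was called the other way in any of the 6. The sign was shared by all 6 in 48 rises (85.7%, against 10.4% of all tested probe sets positive in all 6) and in 73 falls (88.0%, against 11.1% negative in all 6). Among named genes, CCL had steps of 0.93 to 2.12 in the 6 accessions and HAT2 had steps of -1.76 to -1.0. AT1G62770, AT1G30760 and AT4G14270 were called higher in all 6, and HAT2, AT3G28420, AT5G52670 and AT3G01190 were called lower in all 6. AT1G35710, PDC2, AT5G39580, CML42, AT5G44020 and SWEET17 were called in none of them, which does not mean that no step was present. Steps there ran from -0.90 to -0.61 for CML42 and from -0.92 to -0.25 for SWEET17 and AT5G44020. For AT5G39580 they ran from -0.97 to -0.003. The differences of CML42, SWEET17, AT5G44020 and AT5G39580 from the mean of the others did not pass (limma adjusted p = 0.394, 0.570, 0.125 and 0.232).

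A test of the Col-0 step against the mean step of the other 6 accessions called 8 probe sets (0.0502% of those tested), 2 higher (0.0126%) and 6 lower (0.0377%) in Col-0. Past the adjusted p at any size there were 18 higher and 10 lower (0.113% and 0.0628%). AT3G01190, the peroxidase gene, fell by 2.47 ± 0.21 in Col-0 and changed by -1.42 ± 0.09 in the others, a difference of -1.06 ± 0.22 (limma adjusted p = 0.0141). Each of the other accessions had a smaller step, from -1.88 to -1.10. The difference no longer passed without 1 h replicate 1 (-0.99, limma adjusted p = 0.0725) or without 3 h replicate 3 (-0.91, limma adjusted p = 0.239).

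AT1G67860 read 68.7, 84.6 and 87.1 at 1 h and 34.3, 33.2 and 48.4 at 3 h in Col-0, a step of -0.82 ± 0.24, while the other accessions had steps of 0.03 to 0.64. The difference was -1.19 ± 0.26 (limma adjusted p = 0.0240). AT5G24210 read 63.5, 47.9 and 70.7 and then 183, 163 and 206, a step of 1.39 ± 0.22, against -0.25 to 1.31 elsewhere, where Bay-0 had the largest step. That difference was 1.02 ± 0.24 (limma adjusted p = 0.0313). Each of these 2 differences lost its call when any 1 of 5 of the 6 Col-0 arrays was left out. The array whose loss kept the call was 1 h replicate 1 for AT1G67860 (-1.28, limma adjusted p = 0.0417) and 3 h replicate 2 for AT5G24210 (1.1, limma adjusted p = 0.0471). The other 5 gave -1.31 to -1.12 for AT1G67860 (limma adjusted p = 0.0571 to 0.136) and 0.90 to 1.12 for AT5G24210 (limma adjusted p = 0.0618 to 0.277).

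For 3 further genes called in Col-0, picked after their values were seen, the difference passed the adjusted p at less than 2-fold. PDC2 (AT5G54960), a pyruvate decarboxylase of ethanol fermentation, read 75.6, 68.7 and 67.1 at 1 h and 173, 153 and 155 at 3 h. Its step of 1.03 ± 0.12 exceeded the mean of the others by 0.74 ± 0.13 (limma adjusted p = 0.00144), and among the others Bur-0 came nearest with a step of 0.95. The 30 min mean of 116 ± 13.2 was also above the 0 h mean of 77.8 ± 6.91. AT1G53035 exceeded the others by 0.74 ± 0.16 (limma adjusted p = 0.0210), and AT1G35710 by 0.87 ± 0.18 (limma adjusted p = 0.0101). The step of PDC2 was 1.00 without 1 h replicate 3, just short of 2-fold, and 0.98 without 3 h replicate 1. That of AT1G35710 was 0.88 without 1 h replicate 2 and 0.93 without 3 h replicate 2. The difference of AT1G53035 did not pass without any 1 of 5 arrays (limma adjusted p = 0.0606 to 0.239) and passed only without 3 h replicate 2. The difference of AT1G35710 did not pass without 1 h replicate 2, 3 h replicate 2 or 3 h replicate 3 (limma adjusted p = 0.152, 0.0735 and 0.0571).

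**Figure D5:**
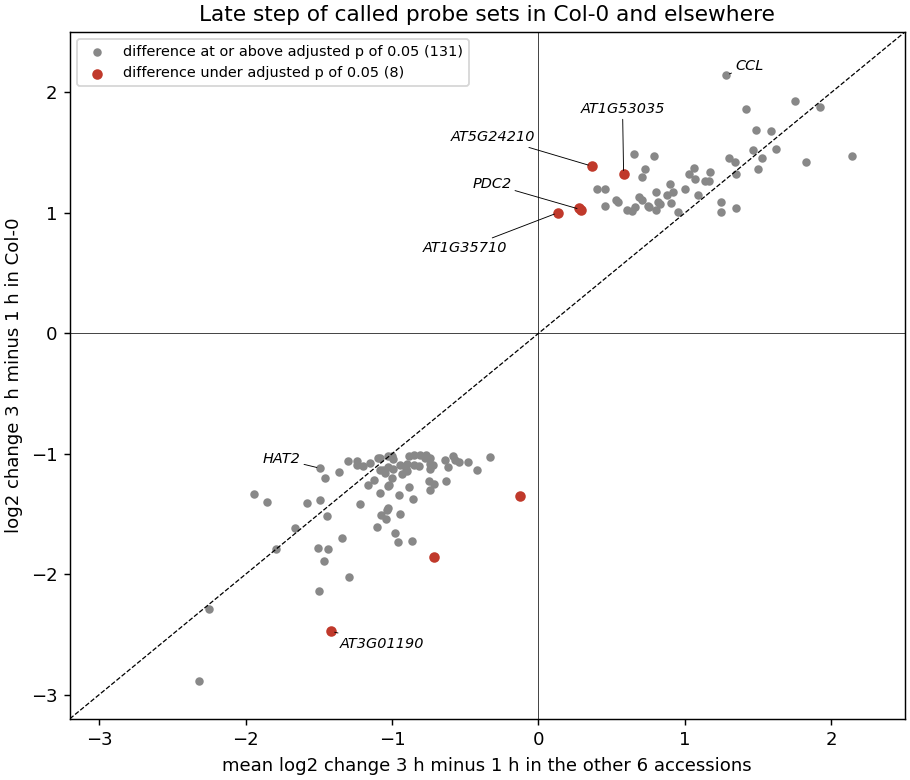
Log2 change from 1 h to 3 h in Col-0 (vertical axis) against the mean change in the other 6 accessions (horizontal axis) for the 139 called probe sets, with a dashed line where both are equal. The 8 red points have a difference past an adjusted p of 0.05, and 5 of them are named genes.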

How the data were processed

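Transcripts were measured in whole seedlings on 83 Affymetrix ATH1 arrays, 6 of them the Col-0 arrays at 1 h and 3 h. The deposited values are signal intensities on a linear scale, 1 per probe set and array, and per the submitters' processing notes MAS5 and GCOS were used, but no version is stated there. The table held 22810 probe sets. After setting aside 64 controls, 22746 remained: 13513 have exactly 1 gene in the probe annotation, 503 have more and 8730 have no gene. Names came from RefSeq (TAIR10.1), with 13436 probe sets matched by gene identifier, 48 by locus tag and 29 unmatched. No detection calls or sequences were used here, and a planned count of promoter motifs was not run.

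Signals were taken as log2(signal + 16), and the bottom 30% by mean (6824) was dropped. For the remaining 15922, 8674 of them with 1 gene, R 4.3.3 with limma 3.58.1 fitted 1 mean for each of 28 groups of accession and time and a trended prior (55 residual and 13.2 prior degrees of freedom). All p-values are two-sided and adjusted over the 15922. The fit was tested on simulated data. For arrays no depth applies, and the number of arrays, 3 per group but fewer for Fei-0 at 3 h, limits the precision. Alternatives were pseudocounts of 1 and 64, other filters, quantile normalization, fewer arrays, a replicate block, and each Col-0 array left out in turn.

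Named are the 15 largest called rises and the 15 largest called falls with 1 gene, up to 3 called members of each list, and up to 6 genes with a called difference between Col-0 and the other accessions (a gene with every signal under 16 is not named). List members are named to show a list's spread, and any gene outside these was chosen after its values were seen. Of 57 lists, 45 were drawn up with the design and 12 families were added once the files were given. The members and lists were chosen with earlier results of these data known. Within a list, a gene was represented by its brightest probe set. Bay-0 arrays, which the labels also describe as a recombinant inbred line, were taken as Bay-0.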

Additional observations from a re-analysis of the deposited data

Results flagged for a closer look

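Flagged here are 6 genes whose change from 1 h to 3 h differed between Col-0 and the mean of the other 6 accessions in limma. Each passed the adjusted p for that difference and had a called difference or a called step. A gene with every signal under 16 was left out. They are not all the genes that differed. Over all tested probe sets, 18 differences were higher and 10 lower in Col-0 past the adjusted p at any size. AT3G01190 differed by -1.06 (limma adjusted p = 0.0141) and AT1G67860 by -1.19 (limma adjusted p = 0.0240), both lower in Col-0. AT5G24210 differed by 1.02 (limma adjusted p = 0.0313), PDC2 by 0.74 (limma adjusted p = 0.00144), AT1G53035 by 0.74 (limma adjusted p = 0.0210) and AT1G35710 by 0.87 (limma adjusted p = 0.0101), all higher in Col-0. In the other accessions AT1G53035 had positive steps throughout, from 0.30 to 1.09, while AT1G35710 ran from -0.10 to 0.64. Of these genes PDC2 passed the adjusted p under every alternative run for it, and AT3G01190 and AT5G24210 did not pass with a pseudocount of 64 (limma adjusted p = 0.104 and 0.0609). AT1G67860 and AT1G35710 did not pass with a pseudocount of 1 (limma adjusted p = 0.123 and 0.518). Without 3 h replicate 3, the array with the low actin 3'/5' ratio, the difference of AT3G01190 was -0.91.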

How the results depend on the processing

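The pseudocount moved the number of calls most. With a pseudocount of 1, 297 probe sets were called between 1 h and 3 h, 101 higher and 196 lower, and with 64 there were 37, 17 higher and 20 lower, none of them outside the 139. The difference from the other accessions then gave 7 and 0 calls, and with 64 the tests of AT1G67860, PDC2, AT1G53035 and AT1G35710 still passed the adjusted p below 2-fold. With the lowest 50% of probe sets left out, 107 and 4 were called, fewer being tested. Without each Col-0 array in turn there were 139 to 149 calls, 50 to 63 of them higher and 83 to 99 lower, and 3 to 8 calls for the difference. Of 60 named calls, 37 were called in all 6 of these fits, 16 were called with a pseudocount of 64, and no named call changed sign in any fit. Quantile normalization gave 137 calls, no filter 149, and the 12 Col-0 arrays or the 6 arrays alone 143 each. Quantile normalization took AT4G38410, AT1G35710 and the difference of AT5G24210 below 2-fold, and with no filter that difference had an adjusted p of 0.0508 in limma. AT4G02850 lost its call with a pseudocount of 1. Little pairing by replicate number was seen. Deviations of same-numbered arrays at 1 h and 3 h correlated at r = -0.041, 0.114 and 0.003, against -0.117 to 0.110 for different numbers. Over all Col-0 times the median was 0.036 for the same number and -0.012 for other numbers, so weak pairing was not excluded. The replicate block gave 139 and 8 calls. Very low signals limit these results, since 17 called falls had a 3 h mean and 5 called rises a 1 h mean under 16.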

Other observations

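Of the 139 called probe sets, 76 were listed with no gene and 3 with several. The largest fall of all was that of a probe set listed with several genes, from 534 ± 16.0 at 1 h to 58.6 ± 8.14 at 3 h (step -2.89). It had been at 733 ± 138 at 0 h, and it was called lower in all 6 other accessions. The largest fall of a probe set with no listed gene was that of 1 called higher at 30 min, with means of 15.0 ± 5.96 at 0 h, 439 ± 55.5 at 30 min, 439 ± 30.1 at 1 h and 77.3 ± 9.71 at 3 h. Among the rises with no listed gene, 1 went from 219 ± 35.1 to 753 ± 195 (step 1.69) and was called higher in all 6 other accessions. TBL45 (AT2G30010), of the trichome birefringence-like family that acetylates wall polymers, fell from 236 ± 17.6 to 103 ± 15.9 (step -1.09 ± 0.15, limma adjusted p = 4.96e-08). AT4G38410, a dehydrin gene, rose from 154 ± 22.3 to 329 ± 67.2 (step 1.00 ± 0.22, limma adjusted p = 0.000845), and its step was 0.91 without 1 h replicate 1, 0.89 without 3 h replicate 1 and 0.95 without 3 h replicate 2. These probe sets and genes were chosen after their values were seen.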
